A study of Mus musculus with 4 samples.

Results

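Haemoglobin-rich cells were picked out of 4 droplet libraries (10x Genomics) of mouse forebrain as every cell barcode in which haemoglobin genes, those with symbols starting Hba- or Hbb-, held 50% or more of the UMIs (unique molecular identifiers, 1 per captured RNA molecule). No filter on detected genes or on mitochondrial RNA was applied, and 285 of 24193 barcodes met the rule. All libraries came from wild-type (wt) brain tissue of E12.5 embryos, with 1 library for each of 4 regions. These were the cortex (CTX) and the 3 ganglionic eminences, lateral (LGE), medial (MGE) and caudal (CGE). The eminences are the ventral swellings that make interneurons and striatal cells. Each library pooled tissue from several C57BL/6 embryos, so no region had replicates, no test was made between regions, and the animal behind each cell is not known. The labels describe sorting for live DRAQ5-stained cells, where DRAQ5 stains DNA, and the study's methods describe wild-type cells as unsorted. That was not settled, so shares of cells may reflect a sort.

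Red blood cells of the embryo come in successive waves. Primitive red cells arise in the yolk sac, circulate while they still hold a nucleus, and make the embryonic globins from Hba-x (zeta), Hbb-y (epsilon-y) and Hbb-bh1 (beta-h1). Definitive red cells arise later, in the fetal liver, expel the nucleus, and make the adult globins from Hba-a1, Hba-a2, Hbb-bs and Hbb-bt. A haemoglobin molecule joins alpha-like chains, encoded on chromosome 11, with beta-like chains, encoded on chromosome 7.

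On GRCm38 the alpha-like genes lie on the plus strand, Hba-x at chr11:32276400-32278116, Hba-a1 at chr11:32283511-32284465 and Hba-a2 at chr11:32296489-32297298. The beta-like genes lie on the minus strand, Hbb-y at chr7:103851749-103853216, Hbb-bh1 at chr7:103841637-103843164, Hbb-bs at chr7:103826534-103828096 and Hbb-bt at chr7:103812524-103813996. The 120 bases before the start site of 5 of these genes are shown, with starts as RefSeq gives them (GRCm38.p6, 5′ to 3′ on the strand of the gene), since the cells split by which of these genes they used. The RefSeq starts differ from the ends of the GENCODE gene spans given above: the stretches of Hba-x, Hba-a1 and Hbb-bs lie within those spans, and those of Hbb-y and Hbb-bt overlap them. Capitals mark motifs searched on both strands. These were CACCC, the kind of box bound by erythroid Krüppel-like factors. To these were added the promoter box CCAAT, then GATAA, the letters read by erythroid zinc-finger factors such as Gata1, and the start-site box TATAA.
Hba-x, chr11:32276480-32276599: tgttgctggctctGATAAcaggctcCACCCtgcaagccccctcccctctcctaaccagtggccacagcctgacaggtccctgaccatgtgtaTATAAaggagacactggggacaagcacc
Hba-a1, chr11:32283552-32283671: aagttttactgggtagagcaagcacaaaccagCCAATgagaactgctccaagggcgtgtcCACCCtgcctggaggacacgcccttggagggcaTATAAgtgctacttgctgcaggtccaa
Hbb-y, chr7:103853208-103853327: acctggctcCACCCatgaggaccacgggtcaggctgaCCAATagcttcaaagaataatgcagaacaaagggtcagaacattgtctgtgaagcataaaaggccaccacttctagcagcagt
Hbb-bs, chr7:103827929-103828048: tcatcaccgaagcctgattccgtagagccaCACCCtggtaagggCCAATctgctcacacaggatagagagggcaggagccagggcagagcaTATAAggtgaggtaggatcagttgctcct
Hbb-bt, chr7:103813924-103814043: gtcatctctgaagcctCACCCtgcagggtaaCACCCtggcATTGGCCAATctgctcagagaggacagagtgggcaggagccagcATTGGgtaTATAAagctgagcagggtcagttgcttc
No marked motif overlapped another. All 5 stretches held CACCC, which 31.7% of all 32851 promoters in the table hold in the same window. CCAAT was in Hba-a1, Hbb-y, Hbb-bs and Hbb-bt (21.3% of promoters), TATAA in Hba-x, Hba-a1, Hbb-bs and Hbb-bt (11.8%), and GATAA in Hba-x (10.5%). These matches describe the letters and were not tested as binding sites. The RefSeq table used here had no row for Hbb-bh1.

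Haemoglobin-rich cells made up 156 of 6953 barcodes in CTX, or 2.24% (exact Clopper-Pearson 95% interval 1.91 to 2.62). LGE had 59 among 6704 (0.880%, 0.671 to 1.13) and MGE 53 among 6235 (0.850%, 0.637 to 1.11). CGE had 17 among 4301 (0.395%, 0.230 to 0.632). The CTX share was the highest and the CGE share the lowest, while the LGE and MGE intervals overlapped. These intervals and those that follow cover counting error only, not the difference between dissections. The globin share ran on across the threshold with few barcodes near it: 23875 barcodes had under 1% globin, 33 had 1% to under 50%, 43 had 50% to under 80% and 242 had 80% or more. There were 11 barcodes at 40% to under 50% and 11 at 50% to under 60%. The members were selected on this share, so it is a description. The barcodes just outside the threshold held 48.3%, 48.9%, 48.9% and 49.5% globin, and those just inside held 50.7%, 50.9%, 51.1% and 52.1%. No member barcode occurred in another library, although 4 to 15 barcodes were shared by each pair of libraries.

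The members were deep barcodes with few genes. Their median UMI counts were 10085, 10080, 10864 and 13949 for CTX, LGE, MGE and CGE, against 5981 to 6983 in the other barcodes. Their median number of detected genes was 436.5, 424, 401 and 508 in the same order, against 2629 to 2871 in the others. Globin took 2434078 of their 2851488 UMIs, which left 417410 UMIs of other genes. Members held 95.6%, 95.9%, 93.8% and 86.6% of all globin UMIs of CTX, LGE, MGE and CGE. In barcodes under 1% globin, globin was 0.00221% to 0.0114% of UMIs, with a median of 0 UMIs per barcode. That level is the background for the globin counts below.

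Embryonic globins were abundant in only part of the members. The cells, labelled as embryonic red blood cells, fell into 2 groups by their beta-like globin. In 153 cells the embryonic genes gave most beta-like UMIs, and in 132 cells the adult genes Hbb-bs and Hbb-bt did, at a dividing line of 50%. No cell lay between 41.3%, the highest adult share in the first group, and 97.9%, the lowest in the second. The next highest share in the first group was 29.7%. These groups are called embryonic-globin and adult-globin cells here, by the RNA that defined them. Which wave the adult-globin cells belonged to, and whether they came from embryo or mother, was not tested. Their beta-like mix is a description, as is every comparison of beta-like genes between them. Of the 156 CTX members 75 were adult-globin cells (48.1%, exact interval 40.02 to 56.2). LGE had 25 among 59 (42.4%, 29.6 to 55.9), MGE 25 among 53 (47.2%, 33.3 to 61.4) and CGE 7 among 17 (41.2%, 18.4 to 67.1). The 4 intervals overlapped.

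**Figure D1:**
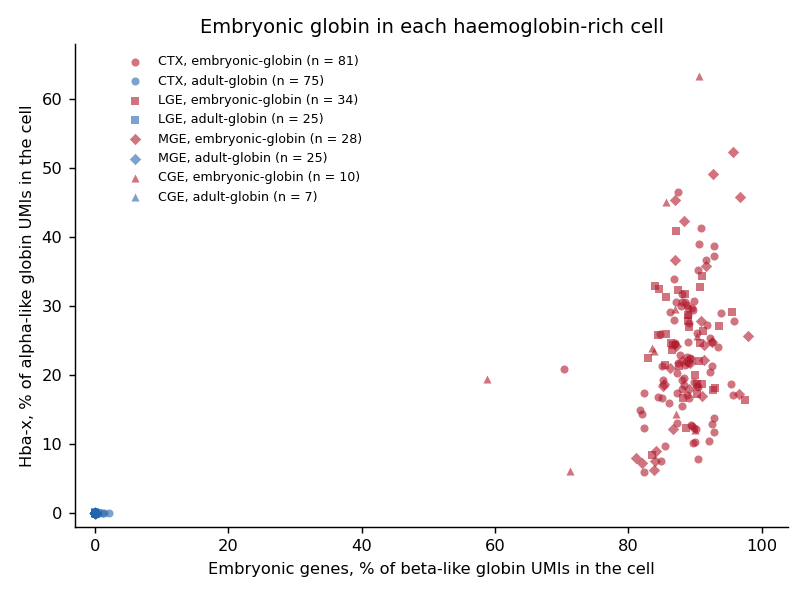
Each point is 1 of the 285 haemoglobin-rich cells, with the embryonic share of its beta-like globin UMIs (x axis, %) and the Hba-x share of its alpha-like globin UMIs (y axis, %). Colour gives the group and shape the library. The 132 adult-globin cells lie near the origin, up to 2.07% on the x axis and 0.0881% on the y axis. The 153 embryonic-globin cells lie at 58.7% to 97.9% on the x axis and 6.01% to 63.4% on the y axis.

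Hbb-y, the main embryonic beta-like gene, had a median per embryonic-globin cell of 5879, 6446.5, 6946.5 and 8208.5 UMIs in the order CTX, LGE, MGE and CGE. Its lowest count in such a cell was 311 and its highest count in an adult-globin cell was 7, while 93 of the 132 adult-globin cells had none. Hbb-y gave 64.6%, 65.0%, 63.9% and 57.6% of globin UMIs in the embryonic-globin cells of CTX, LGE, MGE and CGE. The lower CGE value came from 10 cells, of which 2 had adult genes at 41.3% and 28.8% of beta-like UMIs. Hbb-bh1 was a minor gene, at 0.217%, 0.229%, 0.120% and 0.552% of globin in the same cells. In adult-globin cells it had 387 UMIs in 12 of 132 cells, 332 of these UMIs in CTX, against 63 UMIs of Hbb-y.

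Hba-x, the embryonic alpha-like gene, was not used to divide the cells and separated them completely. Its lowest count in an embryonic-globin cell was 9 UMIs and its highest in an adult-globin cell was 2, with any UMI in 3 of 132 adult-globin cells. It gave 22.5%, 24.1%, 23.9% and 27.2% of alpha-like UMIs in embryonic-globin cells, in the same order of libraries. In adult-globin cells it gave 0.000686%, 0.00601%, 0 and 0% of alpha-like UMIs. The adult genes Hba-a1 and Hba-a2 therefore gave most alpha-like RNA in both groups, whereas embryonic genes gave 82.6% to 88.5% of beta-like UMIs in the embryonic-globin cells. Single embryonic-globin cells ranged from 6.01% to 63.4% in the Hba-x share, with a median of 22.2%. The Spearman correlation of that share with the adult share of beta-like UMIs was -0.15 over 81 CTX cells, 0.13 over 34 LGE cells, -0.66 over 28 MGE cells and -0.42 over 10 CGE cells, as a description of cells that share a library.

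**Figure D2:**
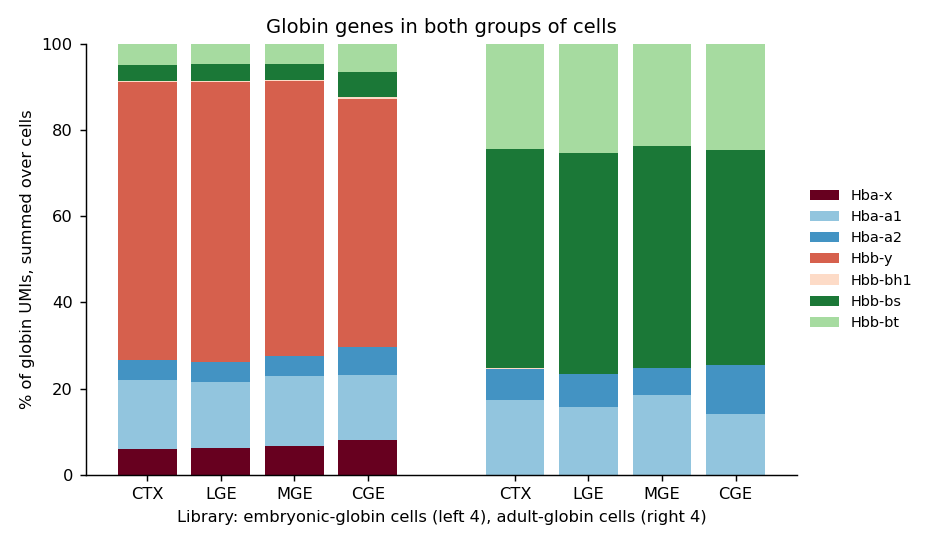
Stacked bars give each globin gene as a share of globin UMIs (y axis, %) summed over the cells of a group in each library (x axis). Hbb-y is the tallest block of the embryonic-globin bars at 57.6% to 65.0% and Hbb-bs that of the adult-globin bars at 49.8% to 51.4%. Genes under 0.1%, such as Hbb-bh0, are left out.

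The pair of adult beta genes was used in different proportions. Hbb-bs and Hbb-bt, tandem adult beta genes, had 2.08, 2.02, 2.16 and 2.02 Hbb-bs UMIs per Hbb-bt UMI in the adult-globin cells of CTX, LGE, MGE and CGE. The same ratio was 0.807, 0.882, 0.787 and 0.900 in the embryonic-globin cells, and 1.76 to 2.08 in the barcodes under 1% globin. The ratio in embryonic-globin cells was thus below 1 in all 4 libraries. Their transcripts are 92.7% identical over 626 aligned bases, so part of their reads could be assigned to either gene.

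Single cells varied widely around this. Hbb-bs took from 0.635% to 100% of the Hbb-bs and Hbb-bt UMIs of an embryonic-globin cell, with an SD of 18.2 percentage points over 153 cells. Counting error alone corresponds to an SD of 2.68 points at their depth, a median of 782 such UMIs. In adult-globin cells the same share ran from 59.6% to 91.97%, with an SD of 5.51 points and a counting SD of 0.760. The cell at 100% was an MGE cell with 64 such UMIs, far fewer than the median. Among cells with 500 or more, 1 LGE cell had the lowest share, with 4 Hbb-bs and 626 Hbb-bt UMIs (0.635%, exact interval 0.173 to 1.62) beside 6529 of Hbb-y. A CTX cell had the highest, with 604 Hbb-bs and 54 Hbb-bt UMIs (91.8%, 89.4 to 93.8) beside 8151 of Hbb-y.

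The adult alpha genes divided the cells in another way. Hba-a1 took 45.05% to 61.8% of the Hba-a1 and Hba-a2 UMIs in 52 adult-globin cells and 73.3% to 79.95% in the other 80, with no cell between. The embryonic-globin cells showed the same gap a little higher, with 38 cells at 56.8% to 69.8% and 115 cells at 75.2% to 86.6%. Medians of the lower and upper sets were 55.2% and 76.8% in adult-globin cells, and 63.1% and 81.6% in embryonic-globin cells. The counting SD of this share was 1.34 and 1.45 points, far below the distance between the medians of the sets. The edges of the embryonic-globin gap, 69.8% and 75.2%, were CTX cells with only 139 and 105 such UMIs, against a median of 1909. Their side of the gap is therefore less sure. The lower set held 28, 11, 6 and 7 adult-globin cells of CTX, LGE, MGE and CGE, which had 75, 25, 25 and 7 such cells. Among embryonic-globin cells it held 19 of 81, 8 of 34, 6 of 28 and 5 of 10. The sets were defined after the values were seen, so the gap is a description. The Hbb-bs share did not follow it, with medians of 69.0% and 67.4% in the lower and upper set of adult-globin cells and 44.0% and 41.2% in those of embryonic-globin cells. The transcripts of Hba-a1 and Hba-a2 are identical at 537 of 538 aligned bases, so the division of reads between them is uncertain and may rest on few positions. Whether the gap lies between embryos or in how reads were assigned was not tested.

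**Figure D3:**
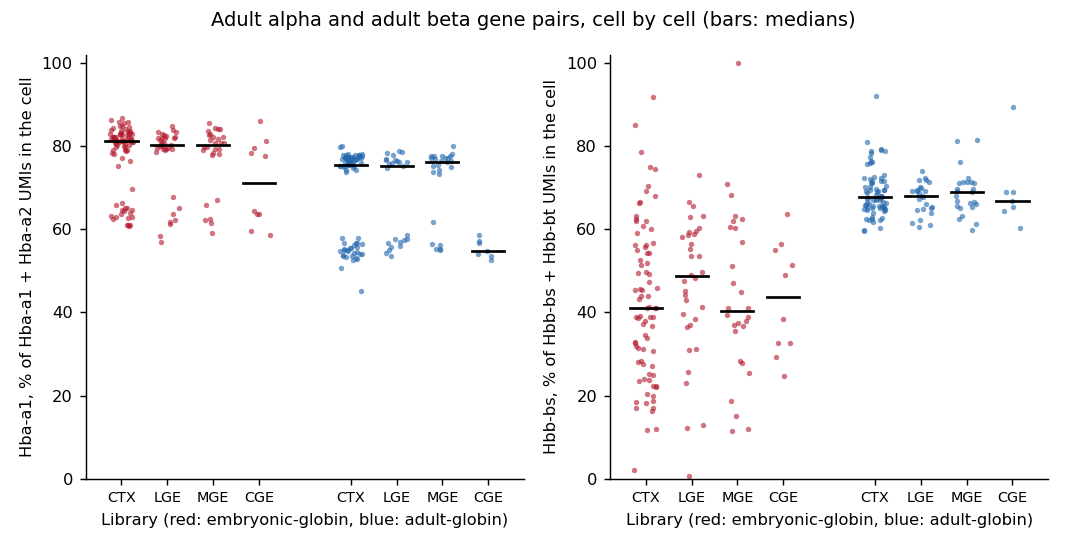
Each point is 1 cell, with the Hba-a1 share of adult alpha UMIs (left, %) and the Hbb-bs share of adult beta UMIs (right, %) by library, red for embryonic-globin and blue for adult-globin cells, and bars at medians. The alpha share leaves an empty band in both groups (69.8% to 75.2% and 61.8% to 73.3%), while the beta share is spread from 0.635% to 100% in embryonic-globin cells.

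Beta-like UMIs outnumbered alpha-like UMIs in both groups, at 2.38 to 2.82 per alpha-like UMI in embryonic-globin cells and 2.92 to 3.28 in adult-globin cells over the libraries. The adult-globin ratio was higher in each of the 4 libraries.

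Erythroid genes that the rule did not use were then compared between members and all other barcodes, on non-globin UMIs summed per library and class (edgeR quasi-likelihood test with library as a block, called at an adjusted p below 0.05 and at least 2-fold). Of 13256 genes tested, 723 were higher in members (5.45%) and 2898 were lower (21.9%). The lists below hold 70 genes called higher among 89 tested genes of 7 erythroid lists, with 3 lower, and their median log2 difference was 3.86 against -1.27 over all genes. With no scaling factors the median of all genes was -1.62, a shift of all values. The number lower depended on single libraries, at 1197 without CTX, 1612 without LGE, 1327 without MGE and 315 without CGE. P-values rest on 4 libraries that each stand for another region.

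In the red-cell membrane list of 21 genes, all 19 tested genes were called higher. Rhag and Aqp1 did not pass the filter on low counts. Slc4a1, the band 3 anion exchanger, stood at 1130, 1349, 901 and 1519 CPM (the usual depth-scaled count, here over non-globin UMIs) in members of CTX, LGE, MGE and CGE, and at no more than 1.38 CPM in other barcodes. Every library showed this, with a log2 difference of 11.51 ± 0.33 (SE, n = 4 libraries). Rhd, the Rhesus blood group antigen, was at 345 to 937 CPM in members (12.26 ± 0.41).

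For haem synthesis, 9 of 12 tested genes were higher. Alas2, the erythroid enzyme of the first step, was at 7862, 8751, 9343 and 8597 CPM in members and 0.545 to 1.56 CPM elsewhere (13.31 ± 0.22). Fech, which puts iron into haem, was at 3309 to 3943 CPM against 10.8 to 22.7 (8.14 ± 0.22). Alas1, Slc25a38 and Tmem14c did not pass.

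For iron, 5 of 10 tested genes were higher. The ferritin chains Fth1 and Ftl1, which store iron, were the most abundant non-globin RNAs of the members. Fth1 was at 69132, 81315, 81526 and 81507 CPM in members and 1029 to 1374 CPM elsewhere (6.41 ± 0.09), and Ftl1 at 66128 to 71941 CPM against 3271 to 3709 (4.58 ± 0.09). Slc25a37, the mitochondrial iron importer mitoferrin, was at 1087 to 1254 CPM (7.94 ± 0.28). Tfrc, the transferrin receptor, had only 24 UMIs in all members, at 62.0, 11.7, 39.8 and 194 CPM against 28.4 to 35.6 elsewhere, and was lower in LGE members. It was called (log2 difference 1.19 ± 0.44) but lost the call without CTX, MGE or CGE, at 1.11, 1.35 and 1.32.

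Genes of haemoglobin partners and redox protection were higher for 9 of 10 tested, among them Prdx2, a red-cell peroxiredoxin, at 13729 to 20328 CPM in members (3.23 ± 0.12), and Car2, carbonic anhydrase, at 2441 to 5203 CPM (9.23 ± 0.23). Terminal maturation genes were higher for 15 of 16, such as Trim10, at 199 to 551 CPM (11.94 ± 0.44), and Fam46c, at 1405 to 2036 CPM (10.59 ± 0.29). The theta-globin genes Hbq1a and Hbq1b, alpha-like genes whose symbols fall outside the rule, were at 92.8 to 162 and 159 to 292 CPM in members and at most 0.0641 and 0.181 elsewhere. Hsd3b6, a steroid dehydrogenase, had a log2 difference of 13.47 ± 0.32, with 1419 to 2779 CPM in members.

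For erythroid transcription factors, 14 of 16 genes were tested, and Gata1 and Gfi1b did not pass the filter on low counts. Of the 14 tested, 9 were higher and 2 were lower. Tal1, a master regulator of blood, was at 523, 880, 464 and 905 CPM in members (9.93 ± 0.35), and Lyl1, its relative, at 152 to 323 CPM (8.04 ± 0.35). Klf1, the erythroid Krüppel-like factor, had only 19 UMIs in all members, at 32.3 to 70.4 CPM against 0.192 to 1.18 (6.31 ± 0.64). Bcl11a, a repressor of embryonic globins that neurons also express, was lower, at 26.5 to 204 CPM in members against 382 to 501 (log2 difference -1.72 ± 0.31). Ldb1 had 7 UMIs in members and lost its call of -1.61 ± 0.58 without CTX (-1.95), MGE (-1.23) or CGE (-0.91). In erythropoietin signalling 4 of 8 were higher, and Socs2 was lower, with 5 UMIs in members (-2.55 ± 0.62, and adjusted p = 0.0553 without CTX).

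Genes of dividing cells had median log2 differences of -1.33 (S phase) and -1.41 (G2 and M), close to the -1.27 of all tested genes. For early progenitors, 6 genes were tested, with a median log2 difference of -8.78, and 0 were called higher and 0 lower. Among them Cd34, Myb, Ptprc and Spi1 had 0 UMIs in all members, and the others were Ikzf1 and Meis1. At such low counts the lack of a call does not show equal levels. Of the cycle genes, 9 of 13 S-phase genes and 10 of 13 genes of G2 and M were lower, and 1 was higher. That gene was Ube2c, a ubiquitin-conjugating enzyme of mitotic exit, at 1262, 1408, 1709 and 2327 CPM in members against 439 to 825 (1.63 ± 0.19). The globin groups described above differed here: the 13 G2 and M genes summed to 4785, 4467, 5569 and 8675 CPM in adult-globin cells of CTX, LGE, MGE and CGE, above the 3305, 4234, 4420 and 2290 CPM of the other barcodes, and to 294 to 1336 CPM in embryonic-globin cells. Of the UMIs in the adult-globin sum, most were of Ube2c.

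The non-globin RNA differed between embryonic-globin and adult-globin cells, in a test added after the data were seen. UMIs were summed per library and group, globin was left out, and 488 genes had counts enough to be tested by the same edgeR model. In adult-globin cells 115 genes were higher (23.6%) and 93 were lower (19.1%), 114 and 91 of them in all 4 libraries and the latter count at 240 with no filter on low counts, with a median log2 difference of 0.10 over all tested genes (0.24 with no scaling factors). Of 103 genes in the 7 erythroid lists, 36 had counts enough to be tested. Of these 36, 21 were higher and 6 lower, with a median of 1.06. A gene could pass the filter through counts in 1 group alone, so these numbers are a description of the tested genes. The adult-globin cells had fewer non-globin UMIs, with a median of 862 per cell against 1602, and fewer genes, 359 against 510. A higher CPM is therefore a larger share of a smaller total.

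Of the tested haem synthesis genes, 3 of 4 were higher in adult-globin cells, against 23.6% of all tested genes. The haem synthesis list held 13 genes. Alas2 stood at 15159, 16963, 21558 and 20089 CPM in adult-globin cells of CTX, LGE, MGE and CGE and at 3589, 4084, 4686 and 4058 CPM in embryonic-globin cells. The groups did not overlap, and the log2 difference was 1.98 ± 0.12 (adjusted p = 2.32e-06). Fech was at 6416 to 10387 CPM against 1306 to 1666 (2.29 ± 0.15) and Urod, an enzyme of the same pathway, at 864 to 1256 CPM against 90.2 to 232 (2.51 ± 0.31). Slc25a37 was at 2590 to 3424 CPM against 239 to 361 (3.17 ± 0.19). Of the 21 genes in the membrane list only 5 had counts enough to be tested, and all 5 were higher. Rhd was at 576 to 2397 CPM against 221 to 361 (1.97 ± 0.30), Epb4.1, the protein 4.1 of the skeleton, at 1683 to 3196 against 732 to 1082 (1.30 ± 0.18), and Tspo2 at 1163 to 1522 against 0 to 202 (3.36 ± 0.44). Slc4a1 had a log2 difference of 1.01 ± 0.33, which fell to 0.82 without MGE and 0.66 without CGE, under the 2-fold limit.

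Mpp1, a palmitoylated protein of the red-cell membrane, had 191 UMIs in adult-globin and 3 in embryonic-globin cells, a ratio of CPM of 121 (counting interval 40.8 to 592). Pla2g16, a phospholipase, had 93 and 2 UMIs, a ratio of 88.4 (23.8 to 741). Gpx1, glutathione peroxidase, was at 13985 to 24655 CPM against 2612 to 7845 (2.04 ± 0.19). Ube2c was at 3190 to 7876 CPM against 110 to 531 (4.14 ± 0.30), and the spindle gene Nusap1 and the phosphatase Cdc25b were higher with it.

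Genes of late maturation were called higher for 7 of 11 tested and lower for 1, the Myc antagonist Mxi1 (-1.05 ± 0.37). Mkrn1, a ubiquitin ligase, was at 11273, 14697, 17716 and 15409 CPM in adult-globin cells against 1085 to 2750 (2.97 ± 0.24), and Trim10 at 624 to 1133 CPM against 36.6 to 271 (2.28 ± 0.32). Bnip3l, the receptor that clears mitochondria from reticulocytes, was at 3082 to 5365 CPM against 1475 to 2105. Its log2 difference was 1.06 ± 0.14, and it dropped to 0.91 without CTX and 0.90 without MGE, as did Car2 (1.09 ± 0.14), at 0.92 without CTX and just under 1 without MGE or CGE. Bcl2l1, a survival gene downstream of erythropoietin, was higher (1.99 ± 0.28), and Pim1, another target of that pathway, was lower (-1.52 ± 0.34).

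**Figure D4:**
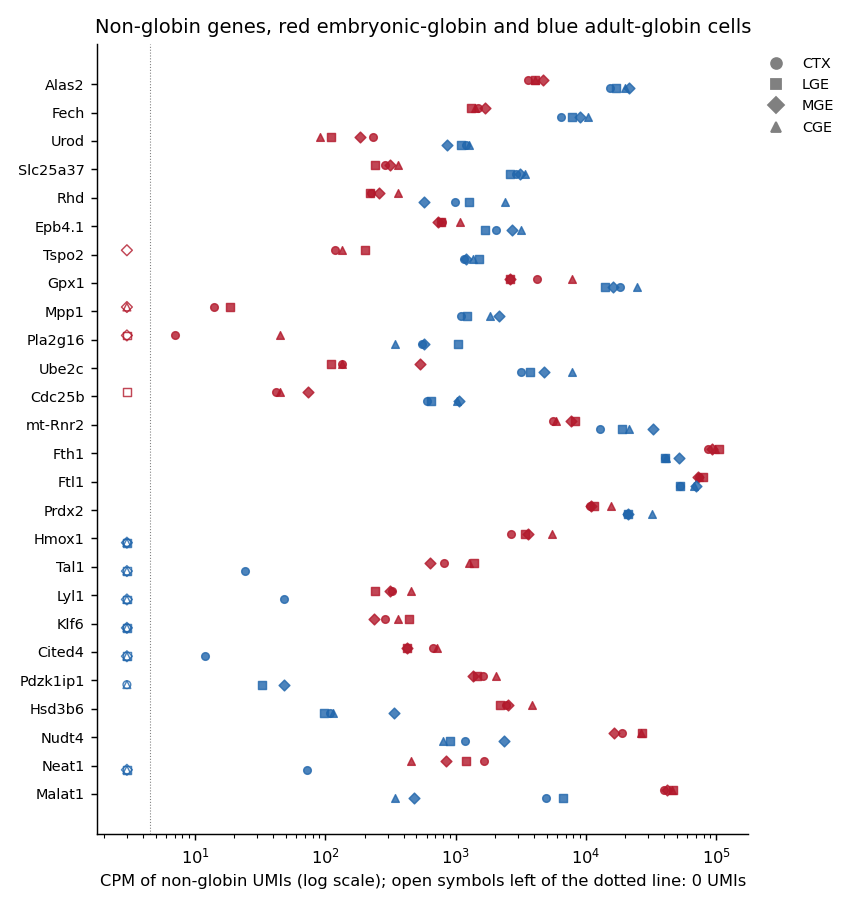
Levels of named genes in CPM of non-globin UMIs (x axis, log scale) for embryonic-globin (red) and adult-globin (blue) cells, with 1 symbol per library, and 0 UMIs as open symbols left of the dotted line. Alas2 to mt-Rnr2 lie higher in adult-globin cells, Fth1, Malat1 and Hmox1 to Neat1 lower, while Ftl1 and Prdx2 differ by less than 2-fold.

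Genes lower in adult-globin cells included regulators and RNAs of the nucleus. Hmox1, haem oxygenase, which breaks haem down, had 881 UMIs in embryonic-globin cells, at 2662, 3403, 3569 and 5500 CPM, and none in 143864 non-globin UMIs of adult-globin cells. Against a floor of 3 UMIs over the adult-globin group, 20.9 CPM, it was at least 154-fold lower. Klf6, a Krüppel-like factor, had 86 UMIs against 0 and was at least 15.1-fold lower on the same floor. Tal1 had 254 UMIs in embryonic-globin and 2 in adult-globin cells, a ratio of CPM of 66.8 (counting interval 18.3 to 555), and Lyl1 had 86 and 4 UMIs (-3.61 ± 0.57). Cited4, a transcriptional coactivator, had 157 and 1 UMIs, a ratio of 82.6 (14.6 to 3282), and Pdzk1ip1, a small membrane protein, 429 and 2, a ratio of 113 (31.0 to 935).

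Malat1, a long RNA kept in the nucleus, was at 39762, 46671, 42081 and 45625 CPM in embryonic-globin cells and 4929, 6636, 480 and 342 CPM in adult-globin cells (-4.23 ± 0.57, adjusted p = 0.000126). Only 2 of 153 embryonic-globin cells had no Malat1 UMI and the median was 63 UMIs, whereas 70 of 132 adult-globin cells had none and the median was 0. In adult-globin cells 63.9% of Malat1 UMIs lay in 4 cells with 1500 or more detected genes, and without such cells Malat1 was at 1940 CPM against 45858. Neat1, another nuclear RNA, had 6 UMIs in adult-globin and 356 in embryonic-globin cells (-5.21 ± 0.49). In all members together Malat1 was higher than in other barcodes (1.46 ± 0.09), but among members at 90% or more globin, 83 of 85 of them adult-globin cells, the difference was -2.42.

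Fth1 was at 40427 to 52093 CPM in adult-globin cells and 85943 to 104491 in embryonic-globin cells (-1.31 ± 0.12, adjusted p = 1.32e-05), and Ftl1 at 53067 to 69666 against 72191 to 79306 (-0.48 ± 0.12, under 2-fold). Both chains together were 9.35%, 9.36%, 12.2% and 10.8% of non-globin UMIs in adult-globin cells and 16.0%, 18.4%, 16.5% and 17.1% in embryonic-globin cells. Nudt4, a diphosphoinositol polyphosphate hydrolase, was at 799 to 2353 CPM against 16528 to 26674 (-4.20 ± 0.31), and Hsd3b6 at 97.1 to 336 against 2171 to 3832 (-4.25 ± 0.29). The autophagy receptor Sqstm1 (-3.53 ± 0.41) and the stress-response gene Ppp1r15a (-3.42 ± 0.56) were lower as well. Prdx2 was at 20639 to 32188 CPM in adult-globin cells against 10753 to 15644 (0.77 ± 0.11), a difference with adjusted p = 0.000249 that lay under the 2-fold limit.

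Ribosomal protein genes were called lower in adult-globin cells for 28 of 79 tested, with a median log2 difference of -0.78. They gave 13.4%, 10.6%, 12.4% and 14.03% of non-globin UMIs there against 18.4%, 16.4%, 18.8% and 18.7% in embryonic-globin cells. RNA of the mitochondrial genome went the other way, at 2.53%, 3.23%, 4.44% and 3.23% against 1.25%, 1.53%, 1.18% and 0.893%. Of its 7 tested genes 3 were higher, including the ribosomal RNA mt-Rnr2 (1.41 ± 0.17).

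**Figure D5:**
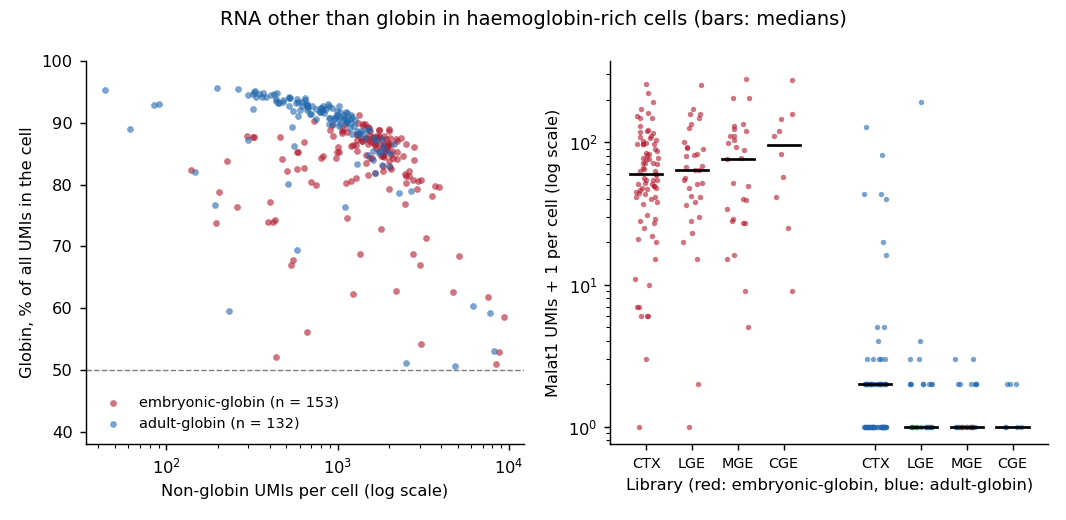
Left, each cell's non-globin UMIs (x axis, log scale) and globin share (y axis, %), with the 50% threshold dashed. Right, Malat1 UMIs plus 1 per cell (y axis, log scale) by library, with bars at medians. Adult-globin cells (blue) reach 95.6% globin and most hold 0 or 1 Malat1 UMI, and embryonic-globin cells (red) reach 91.3% and hold a median of 63.

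Summed over the members of each library, neural RNA was at a lower level than in the other barcodes. The 15 neural genes summed to 5944, 9103, 6626 and 4201 CPM in members of CTX, LGE, MGE and CGE and to 16063, 21250, 20127 and 25459 CPM in other barcodes. Of these genes 14 of 15 were called lower, against 21.9% of all tested genes. Their median log2 difference was -1.75, not far below the -1.27 of all tested genes. Six3, Sst and Ptprz1, forebrain genes called lower, had 1, 1 and 2 UMIs in all members. Tuba1a, a tubulin also found outside neurons, was not called (-0.66 ± 0.14, and 0.09 without CGE). The 4 regional lists of 6 genes each were not all confined to their own region, in members or in other barcodes. The cortical list had 75, 0, 0 and 1 UMIs in members of CTX, LGE, MGE and CGE. The LGE list had 69, 81, 6 and 0 UMIs, or 306, 950, 79.5 and 0 CPM. The MGE list had 24, 2, 23 and 0 UMIs, or 106, 23.5, 305 and 0 CPM, and all 24 in CTX were of Rprm. The CGE list had 42, 3, 8 and 3 UMIs, or 186, 35.2, 106 and 96.96 CPM. Its order between CTX and CGE members rests on 3 CGE UMIs and was not stable. Without members of 1500 or more genes it was at 15 UMIs (82.0 CPM) in CTX and 3 UMIs (96.96 CPM) in CGE. In the other barcodes of their own region these lists stood at 1418, 2854, 1676 and 2204 CPM. The other barcodes of CTX also held the LGE, MGE and CGE lists, at 778, 411 and 494 CPM.

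Of the members, 10 had 1500 or more detected genes, 7 in CTX, 2 in LGE and 1 in MGE, with 50.7% to 62.7% globin. They held 16.4% of the members' non-globin UMIs and 40.8% of their neural UMIs, at 16364 CPM of neural genes against 4661 CPM in the other members. Their part in the genes called lower was not tested beyond leaving them out, which gave 4040 such genes in place of 2898. Neural genes were at 3310 to 9777 CPM in adult-globin and 4553 to 8720 CPM in embryonic-globin cells, and 1 of 6 tested neural genes, Tuba1a, was lower in adult-globin cells (-1.14 ± 0.23, and -0.97 without CGE, under 2-fold). Markers of other blood and vessel cells were near 0 in members: 0 UMIs for the 7 macrophage genes, 5 UMIs for 7 endothelial genes, 1 for 7 pericyte and mesenchyme genes and 2 for 6 megakaryocyte genes.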

How the data were processed

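Per the labels and the file headers, the deposited values were raw UMI counts per gene and barcode, made by the authors with Cell Ranger (3.0.0 in the labels, 3.0.2 in the headers) on mm10 (GRCm38), with barcodes already called as cells and at least 500 UMIs each. Strand use was not given in the sources used here. The members, gene lists and tests were chosen with earlier results of these data known.

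Counts of 43346 genes were read, and 11 globin genes defined members. Globin was left out of the totals behind CPM. Non-globin counts were summed per library and class (8 sums), filtered with filterByExpr, scaled by TMM and tested with edgeR 4.0.16 (quasi-likelihood, library as a block because both classes came from each library, Benjamini-Hochberg over all genes tested), called at an adjusted p below 0.05 and 2-fold. DESeq2 1.42.0 was an alternative. The edgeR script was tested on simulated data before use. The comparison by globin group, with its alternatives, and the gene-pair sets were added after the data were seen. Named genes were all globins, list genes, the 10 most abundant non-globin genes, and, among called genes that moved alike in 4 libraries and reached 100 CPM, the 15 that rose most and 10 that fell most (15 between globin groups). Some genes that met this rule are not reported here. Epb42 and Epb41 were matched by older symbols, and Ahsp, Eraf, Tent5c, Hbb-b1 and Hbb-b2 were not matched. No doublet caller was run. Gene positions came from GENCODE M21, and promoters from RefSeq. Transcripts were aligned with Biopython 1.88.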

Additional observations from a re-analysis of the deposited data

How the results depend on the processing

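The number of genes higher in members than in other barcodes (723) was 524 to 952 under the alternatives, apart from 288 with members at 90% or more globin. The number lower (2898) depended on the setting: 5306 with no scaling factors, 769 with DESeq2, 747 with no filter on low counts and 494 with members at 90% or more globin. It was 1197 without CTX, 1612 without LGE, 1327 without MGE and 315 without CGE. Leaving out 1 library moved the number higher between 524 and 861. The model without the library as a block, which drops the pairing of classes within a library, gave 693 higher and 2700 lower.

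Between globin groups, leaving out 1 library gave 88 to 140 genes higher and 97 to 114 lower, and with no filter 240 were lower instead of 93. With no replicate block the numbers were 117 and 93. Of 40 genes named there, 36 kept their call in all alternatives, and Slc4a1, Car2, Bnip3l and Tuba1a did not. Of 36 named against other barcodes, 28 did. Those that reversed were Tfrc (-0.77) and Malat1 (-2.42) with members at 90% or more globin, and Tuba1a (0.087) without CGE, with a range of -0.85 to 0.087 when 1 library was left out.

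As medians over the libraries, members at 90% or more globin had 1.94% embryonic beta-like UMIs in place of 49.4%, 0.542% embryonic alpha-like in place of 14.3%, 24.7% alpha-like in place of 26.0%, 97.4% adult-globin cells in place of 44.8%, 714.5 non-globin UMIs in place of 1226 and a mitochondrial share of 2.89% in place of 1.90%. Such members were mostly adult-globin cells. Thinned to 500 globin UMIs a cell, the embryonic beta-like share was 47.2%. Neural RNA in members as a percentage of that in other barcodes was 34.96%, and 51.7% with members at 30% or more globin, 22.5% at 70%, 19.6% at 90% and 22.4% without members of 1500 or more genes.

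Depth limits this comparison most in CGE, with 17 members and 8761 non-globin UMIs in its 7 adult-globin cells. With fewer than 3 UMIs in a group, a gene's absence was not detectable.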
